A study of Homo sapiens with 4 samples.

Results

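The genes of the YAP, TAZ and TEAD transcription complex and 4 of its best-known target genes were followed in the transcriptomes of PANC-1 cells and of the knockdown (KD) clone PZT-2. The members were picked by symbol: YAP1, WWTR1 (which encodes TAZ), TEAD1, TEAD2, TEAD3, TEAD4, CYR61 (also called CCN1), CTGF (also called CCN2), ANKRD1 and AMOTL2, which are 10 of the 15219 genes in the table. They and the gene lists below were chosen with earlier results of these data known. The shares of them that were called are therefore descriptions. All 10 had a value and passed the filter on low counts. RNA sequencing compared 2 libraries of PANC-1, an untransduced human pancreatic adenocarcinoma cell line, with 2 libraries of PZT-2. PZT-2 is a single puromycin-selected clone of PANC-1 that carries lentiviral shRNAs against the H2A.Z isoforms, histone H2A variants encoded by H2AFZ and H2AFV, and it was picked by the study for its low H2A.Z and its pronounced senescence. Both lines were grown in DMEM with fetal bovine serum and received no drug in this comparison. PZT-2 is 1 clone set against an untransduced line, so knockdown, transduction, selection and clonal origin cannot be told apart here, and the scrambled shRNA cells of the study were not analysed here.

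YAP and TAZ are paralogous transcriptional coactivators that do not bind DNA themselves and reach it mainly through the TEAD factors. When the Hippo kinases MST and LATS are active, phosphorylated YAP and TAZ are held in the cytoplasm or degraded, and when the kinases are quiet, as in spread cells on a stiff matrix, the coactivators enter the nucleus and switch on genes such as CTGF, CYR61, ANKRD1 and AMOTL2. YAP has been studied widely in pancreatic ductal tumours. Because much of this control acts on the proteins, the mRNA level of YAP1 or WWTR1 is not a measure of their activity, and no protein or localization was measured in these libraries.

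The sequence that the TEAD domain recognizes is commonly written GGAATG, or CATTCC on the other strand. It is shown here for the members because several of them are classical TEAD targets. Promoters running from 250 bases before to 50 bases after the start were taken from RefSeq (GRCh38.p14). A promoter was available for 7 of the 10 members: YAP1, WWTR1, TEAD2, TEAD3, CTGF, ANKRD1 and AMOTL2. None was available for TEAD1, TEAD4 and CYR61, so these were not searched. These 7 genes had 10 promoters listed. The sequence was found in 4 of the 7 genes and in 4 of the 10 promoters (40%). In the 30-base windows that follow, written 5′ to 3′ along the strand of the gene, capitals mark each GGAATG or CATTCC.
CTGF (upstream match), chr6:131951524-131951553, minus strand: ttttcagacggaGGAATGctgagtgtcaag
CTGF (paired matches), chr6:131951454-131951483, minus strand: gtggggaGGAATGcgaGGAATGtccctgtt
ANKRD1 (upstream match), chr10:90921290-90921319, minus strand: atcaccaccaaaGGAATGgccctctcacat
ANKRD1 (downstream match), chr10:90921198-90921227, minus strand: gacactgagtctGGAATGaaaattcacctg
AMOTL2, chr3:134374499-134374528, minus strand: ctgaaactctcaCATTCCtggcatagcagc
YAP1, chr11:102110273-102110302, plus strand: cgggagtgtgcaGGAATGtagcaacttgca
The CTGF promoter held 3 matches, whose leading bases lay at -169, -104 and -95 from the start, and the last pair is separated by only 3 bases. Among all 35116 promoters in the RefSeq table, 14% had at least 1 match on either strand and 0.128% had 3 or more. ANKRD1 had matches at -220 and -128, AMOTL2 had a match in reverse orientation at -69, and YAP1 had a match at -162. WWTR1, TEAD2 and TEAD3 had none of these letters in their windows. The AP-1 sequence TGANTCA, searched on both strands, was found in 7.71% of all promoters and in 1 of the 10 promoters of the members (10%), in ANKRD1. The CArG box bound by serum response factor was found in 1.29% of all promoters and in 0 of the 10 promoters of the members. These matches are descriptions of letters and no binding was measured.

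The targeted genes were lower in PZT-2. H2AFZ had normalized counts of 6389 and 6034 in the PANC-1 libraries and 2212.5 and 2259 in the PZT-2 libraries, a log2 fold change (log2FC) of -1.47 (adjusted p = 6.09e-05, edgeR quasi-likelihood test with Benjamini-Hochberg adjustment, as for all adjusted p-values here). H2AFV fell less, from 3344 and 3452 to 2590.0 and 2717 (log2FC -0.36, adjusted p = 0.00562). The H2AFV call was lost with only the most abundant transcript (adjusted p = 0.0669) and without PZT-2 replicate 1 (adjusted p = 0.0557). The estimated counts summed to between 12861486 and 15717579 per library. Across all 15099 genes tested, 2224 were called higher and 2064 lower in PZT-2 at an adjusted p under 0.05, so that 28.4% of genes were called, 14.7% higher and 13.7% lower. The ductal label was checked with 6 epithelial markers: all had values, their summed normalized count was 86712.5 and 85704 in PANC-1 and 45164 and 44370.2 in PZT-2, and KRT8, KRT18, KRT19 and CDH1 were called lower. Of 23 markers of fibroblasts, leukocytes, endothelium, acini and islets, 18 had no value, and the summed count of the other 5 was 2201 and 2124 in PANC-1 and 1914 and 1811 in PZT-2, most of it CD68, which was not called (adjusted p = 0.769). Of the other markers, COL1A1 was called lower (log2FC -1.75, adjusted p = 0.000456), and CD14, with normalized counts of 3.38 and 0 in PANC-1 and 16.1 and 31.6 in PZT-2, was called higher (adjusted p = 0.0233). The part that these markers play in the values of the members was not tested.

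Of the 10 members, 3 were called higher in PZT-2 (WWTR1, TEAD3 and CTGF), 2 were called lower (TEAD1 and CYR61) and 5 were not called. That is 50% of the members against the 28.4% of all genes tested, and against 36.9% of the 10052 genes whose normalized counts averaged at least 100. The PANC-1 and PZT-2 libraries did not overlap for 8 members, where 66.2% of all genes tested did not overlap. The median log2 fold change of the members was -0.14, and that of all genes tested was 0.00. The TEAD family and the targets each held members called in both directions, and of the coactivators only WWTR1 was called. In these bulk libraries, fewer cells of a type and less RNA per cell cannot be told apart.

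The coactivators differed from each other. YAP1 had normalized counts of 2617 and 2793 in PANC-1 and 2777 and 2676 in PZT-2. These libraries overlapped, and both PZT-2 values lay between the PANC-1 values. The PANC-1 mean of 2705 ± 125 (SD, n = 2) and the PZT-2 mean of 2726.5 ± 71.7 (SD, n = 2) gave a log2 fold change of 0.01 ± 0.0606 (SE) and a 95% interval of -0.13 to 0.16 (adjusted p = 0.92). The interval thus leaves room for a change of about that size in either direction. WWTR1 had normalized counts of 3858 and 3944 in PANC-1 and 4915 and 4916 in PZT-2. The PZT-2 libraries were both above the PANC-1 libraries, by far more than the gap within either pair. The log2 fold change of WWTR1 was 0.33 ± 0.0499 (SE), a 1.26-fold rise (95% interval 0.21 to 0.45 on the log2 scale, adjusted p = 0.00453), and it stayed called under all 14 alternative settings, with values from 0.31 to 0.34.

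Per length, the WWTR1 mRNA was the more abundant of the pair in every library. In TPM, the length-corrected abundance that kallisto gives, YAP1 had 61.9 and 66.6 TPM in PANC-1 and 65.3 and 62.7 TPM in PZT-2, and WWTR1 had 95.4 and 98.0 TPM in PANC-1 and 121 and 120 TPM in PZT-2. The ratio of WWTR1 to YAP1 within a library was 1.54 and 1.47 in PANC-1 and 1.85 and 1.92 in PZT-2. The ratios did not overlap between the lines, while 2 libraries against 2 cannot go below p = 0.333 in an exact two-sided permutation test. The summed TPM of both coactivators was 157 and 165 in PANC-1 and 186 and 183 in PZT-2. The table lists 9 transcripts for YAP1 and 3 for WWTR1. For YAP1 the split was spread over isoforms, with NM_001130145 at 33.4% to 39.1% and NM_001195044 at 29.3% to 34.8% of the gene's TPM, and NM_001282099 ranging from 1.29% to 13.6% between libraries. For WWTR1 a single transcript, NM_015472, carried 96.0% to 97.6%.

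WWTR1 lies on chromosome 3, where 404 of the 836 genes tested (48.3%) were called higher, 21 were called lower and the median log2 fold change was 0.43. Its 20 nearest tested genes in the RefSeq order, 10 on each side, had a median log2 fold change of 0.34, and 9 of them were called higher and 0 lower. The change of WWTR1 was thus close to the median of its neighbours and below that of its chromosome. DNA copy number was not measured here, and the part that the chromosome plays in the WWTR1 value was not tested. YAP1, on chromosome 11, had neighbours with a median of -0.05.

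The TEAD factors, the DNA-binding partners of YAP and TAZ, moved in different directions. TEAD1 had normalized counts of 1839.7 and 1973 in PANC-1 and 1484 and 1201 in PZT-2. Both PZT-2 libraries were lower than both PANC-1 libraries, although the PZT-2 libraries were spread more widely, with a gap of 0.30 on the log2 scale that exceeded that of 94.1% of genes with a mean of at least 100. The log2 fold change of TEAD1 was -0.51 ± 0.105 (SE, 95% interval -0.76 to -0.26, adjusted p = 0.0141). Without PZT-2 replicate 2, the lower library, it was -0.36 with an adjusted p of 0.0653, and it kept its call in 12 of 14 alternative settings. Its neighbours on chromosome 11 had a median of -0.18, with 6 of 20 called lower.

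TEAD3 had normalized counts of 165 and 164 in PANC-1 and 309 and 276 in PZT-2. The lines did not overlap, and the PANC-1 libraries were nearly equal. TEAD3 rose with a log2 fold change of 0.83 ± 0.115 (SE), or 1.77-fold (95% interval 0.55 to 1.10 on the log2 scale, adjusted p = 0.00351), which was the largest absolute change among the members. The call held in all 14 alternative settings, with values from 0.73 to 0.91. The neighbours of TEAD3 on chromosome 6 had a median log2 fold change of -0.01.

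TEAD2 and TEAD4 were not called. TEAD2 had normalized counts of 384 and 314 in PANC-1 and 282 and 266 in PZT-2 (log2FC -0.34, 95% interval -0.64 to -0.05, adjusted p = 0.0831). TEAD4 had normalized counts of 689.7 and 688 in PANC-1 and 594 and 659.6 in PZT-2 (log2FC -0.14, 95% interval -0.33 to 0.06, adjusted p = 0.263). Neither gene's libraries overlapped between the lines, but the differences did not pass the threshold after adjustment. TEAD2 was called in 1 of 14 alternative settings, without PANC-1 replicate 2 (log2FC -0.49, adjusted p = 0.0118), and TEAD4 in 0 of 14.

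Per length, TEAD4 was the most abundant TEAD mRNA in all 4 libraries, at 52.1 and 51.9 TPM in PANC-1 and 44.6 and 49.2 TPM in PZT-2. TEAD1 followed in PANC-1 with 24.4 and 26.3 TPM, then TEAD2 with 23.0 and 19.4 TPM, and TEAD3 was lowest with 7.10 and 7.09 TPM. In PZT-2 the order of TEAD1, at 19.6 and 15.8 TPM, and TEAD2, at 17.0 and 16.3 TPM, could not be separated because their libraries overlapped, and TEAD3 reached 13.2 and 11.8 TPM. The 4 TEAD genes together amounted to 105.6 ± 1.35 TPM in PANC-1 and to 93.7 ± 0.914 TPM in PZT-2 (mean ± SD of 2 libraries each). Within that sum, TEAD3 made up 6.66% and 6.78% in PANC-1 and 14% and 12.6% in PZT-2, and TEAD1 made up 22.9% and 25.1% in PANC-1 and 20.7% and 17.0% in PZT-2. TEAD4 contributed between 47.3% and 52.9% in every library. TEAD2 is listed with 5 transcripts whose split moved widely between libraries, with NM_001256659 between 18.1% and 52.8% of the gene's TPM, so only its sum is used.

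**Figure D1:**
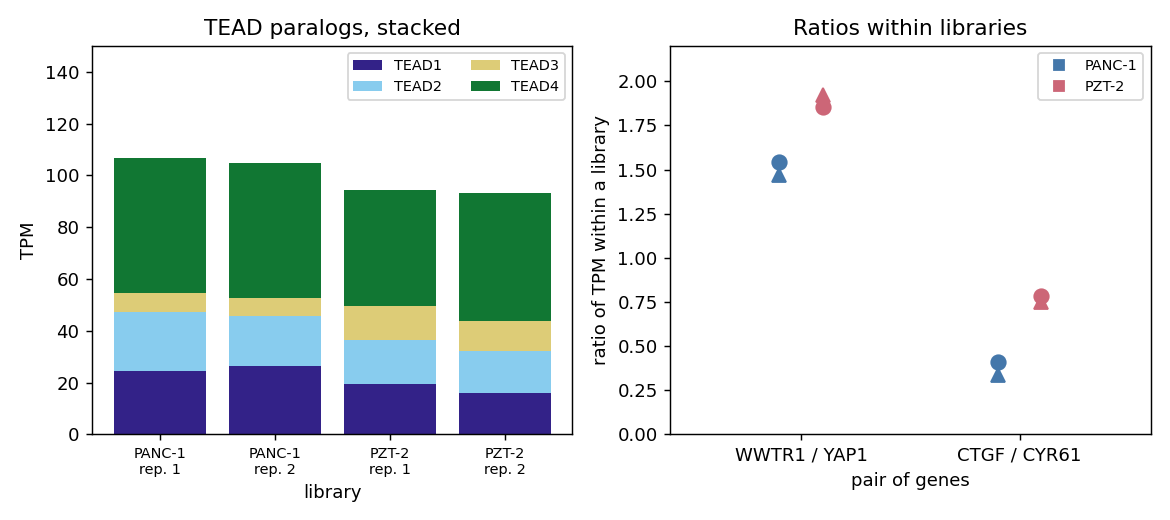
Left, TPM of the 4 TEAD genes stacked for each library, and right, ratios of TPM within each library for WWTR1 over YAP1 and CTGF over CYR61 (circles, replicate 1, and triangles, replicate 2). TEAD4 is the thickest layer in each bar, the TEAD3 layer is thicker in PZT-2, and both ratios are higher in the PZT-2 libraries, at 1.85 and 1.92 for WWTR1 over YAP1.

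Of the targets, CTGF and CYR61, which encode closely related secreted matricellular proteins, were called in opposite directions. CTGF had normalized counts of 4105 and 2858 in PANC-1 and 5451 and 5373 in PZT-2. Both PZT-2 libraries were above both PANC-1 libraries. The log2 gap between the PANC-1 libraries, 0.52, was larger than that of 97.8% of genes with a mean of at least 100, while the gap between the PZT-2 libraries was 0.0206. The mean rose from 3481 ± 882 (SD, n = 2) to 5412 ± 54.7 (SD, n = 2), with a log2 fold change of 0.64 ± 0.152 (SE, 95% interval 0.27 to 1.00, adjusted p = 0.0233). The size of the rise rested on which PANC-1 library was used, with alternatives between 0.39 and 0.92. The call was lost in 4 of 14 settings. It was lost with the DESeq2 Wald test (adjusted p = 0.0580) and in the fit on the most abundant transcript of each gene (0.0820). CTGF is listed with a single transcript, and its log2 fold change in the latter fit was 0.63. The call was also lost without PZT-2 replicate 1 or replicate 2, at log2 fold changes of 0.63 and 0.65.

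CYR61 had normalized counts of 9723 and 8219 in PANC-1 and 6751 and 6949 in PZT-2. Both PZT-2 libraries were below both PANC-1 libraries. CYR61 fell with a log2 fold change of -0.39 ± 0.0819 (SE), to 0.764 of the PANC-1 mean (95% interval -0.59 to -0.19 on the log2 scale, adjusted p = 0.0152). CYR61 is listed with a single transcript. Its call was lost in the fit on the most abundant transcript of each gene (adjusted p = 0.0536) and without PZT-2 replicate 1 (0.0769) or replicate 2 (0.0695), although the log2 fold change stayed at -0.39, -0.37 and -0.41 there. CYR61 remained the more abundant mRNA of the pair per length in every library, with 559 and 475 TPM in PANC-1 and 386 and 397 TPM in PZT-2, where CTGF had 229 and 161 TPM in PANC-1 and 303 and 298 TPM in PZT-2. The ratio of CTGF to CYR61 within a library was 0.410 and 0.338 in PANC-1 and 0.784 and 0.751 in PZT-2. The summed TPM of CTGF and CYR61 was 788 and 636 in PANC-1 and 689 and 695 in PZT-2, which overlapped. The neighbours of CTGF on chromosome 6 had a median of -0.07, with 2 of 20 called higher and 4 lower, and those of CYR61 on chromosome 1 had a median of 0.04, with 2 of 20 called higher and 6 lower.

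AMOTL2 encodes an angiomotin-family scaffold that binds YAP and is itself a YAP target. It had normalized counts of 2643 and 2300.0 in PANC-1 and 2010.2 and 2102 in PZT-2. The PZT-2 libraries were both lower, but the log2 fold change of -0.26 (95% interval -0.46 to -0.07) had an adjusted p of 0.0506, just over the threshold. It was called in 4 of 14 alternative settings, with adjusted p-values over all of them from 0.00115 to 0.216. AMOTL2 lies on chromosome 3, and its 20 neighbours had a median log2 fold change of 0.21, with 7 called higher and 1 lower. The sign of AMOTL2 was opposite to that of this median, while the values of the neighbours ran from -3.90 to 1.48. ANKRD1, a nuclear ankyrin-repeat protein often used as a YAP readout, was near the limit of detection, with 4 and 13 reads in PANC-1 and 6 and 9 reads in PZT-2. Its libraries overlapped, and the 95% interval of the log2 fold change ran from -1.64 to 1.33 (adjusted p = 0.887), so that a 2-fold change in either direction lay within it and could not be detected at this depth.

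Genes with a profile closest to that of a member were sought among the 10052 genes with a mean of at least 100, by the Euclidean distance between mean-centred log2 values over the 4 libraries. For YAP1 they were SLMO2-ATP5E (0.00890), SRP54 (0.0118) and CDK12 (0.0137). For WWTR1 they were PRDX1 (0.0133), SLC35F2 (0.0154) and RBM10 (0.0178). For CYR61 they were ZNF793 (0.0201), FBXW4 (0.0204) and PLEKHF1 (0.0208). For CTGF they were KLF3 (0.0549), PELI3 (0.0589) and NAPB (0.0599), which were farther away than those of the other genes. With 4 libraries many genes share such a profile, and the distances are given as a description.

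Paralogs of the members were examined by name. Of 12 listed, 7 were tested, 4 were called higher and 0 lower, which is 57.1% called against 28.4% of all genes. AMOT, the founding angiomotin, had normalized counts of 73.1 and 88.6 in PANC-1 and 252 and 188 in PZT-2 (log2FC 1.43 ± 0.193, SE, adjusted p = 0.00315). AMOTL1 had 206 and 199 in PANC-1 and 475 and 378 in PZT-2 (log2FC 1.08 ± 0.135, SE, adjusted p = 0.00245). Both angiomotins rose in PZT-2 with no overlap between the lines, while AMOTL2, the remaining angiomotin, had the negative value given above. AMOT lies on the X chromosome, where 36% of the 475 genes tested were called lower and 12 of its 20 neighbours were called lower with a median of -0.50, and the neighbours of AMOTL1 had a median of 0.02.

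VGLL4, a cofactor that competes with YAP for TEAD, had normalized counts of 812 and 694 in PANC-1 and 1328 and 1269.7 in PZT-2 (log2FC 0.79 ± 0.0888, SE, adjusted p = 0.00172). VGLL4 rose with no overlap between the lines. It lies on chromosome 3, and its neighbours had a median of 0.48. WISP2, a secreted relative of CTGF also called CCN5, had 206 and 174 in PANC-1 and 255 and 257 in PZT-2 (log2FC 0.44, adjusted p = 0.0412), and this call was lost in 6 of 14 settings, including the fit with a replicate block (adjusted p = 0.0591). ANKRD23 (log2FC 0.23, adjusted p = 0.598), VGLL3 (-0.02, 0.984) and WISP3 (adjusted p = 0.828) were not called.

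**Figure D2:**
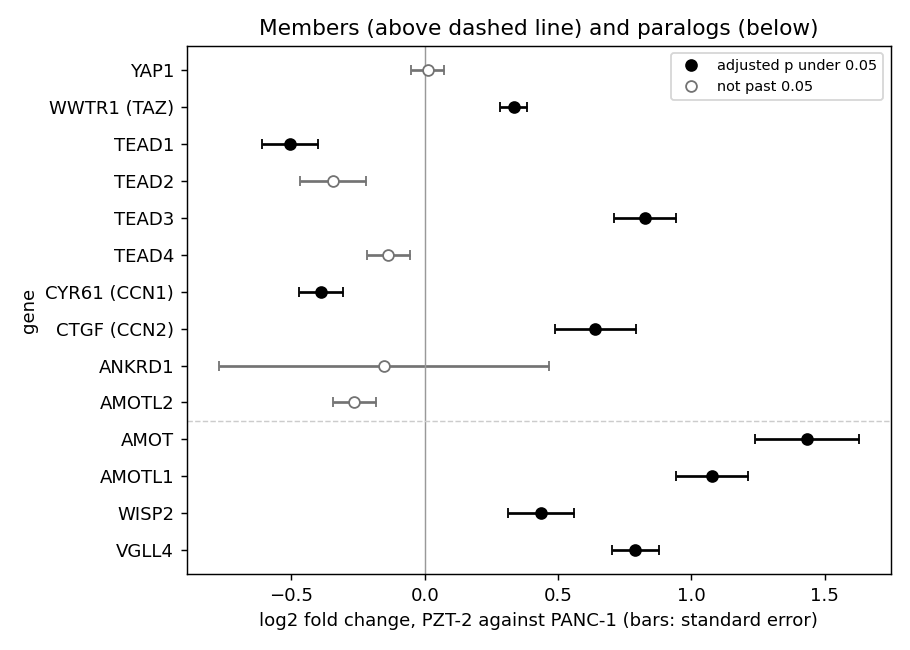
Log2 fold change in PZT-2 against PANC-1 with its standard error for the 10 members (above the dashed line) and for paralogs whose normalized counts averaged at least 50 (below it). Filled points passed an adjusted p of 0.05. AMOT at 1.43 and AMOTL1 at 1.08 exceed every member, TEAD3 at 0.83 is the highest member and TEAD1 at -0.51 the lowest.

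A wider list of 22 widely used YAP and TAZ target genes, 4 of which are the targets already described, was split in the same way. Of 21 tested, 5 were called higher, 7 lower and 9 were not called. That is 57.1% called, against 28.4% of all genes tested and 36.9% of genes with a mean of at least 100. The median log2 fold change was -0.03, against 0.00 over all genes tested. Without the 4 members, 4 of 17 were called higher and 6 lower (58.8% called), with a median of 0.02. IGFBP3, a secreted binding protein for insulin-like growth factors, had normalized counts of 58.5 and 57.8 in PANC-1 and 993 and 1070 in PZT-2. That was the largest change of the list, with a log2 fold change of 4.15 (adjusted p = 4.01e-05), while no other gene called higher in the list exceeded 0.92. GADD45A, a stress-inducible growth arrest gene, had 646 and 509.7 in PANC-1 and 1016 and 1163 in PZT-2 (log2FC 0.92, adjusted p = 0.00331). NT5E, which encodes the ectonucleotidase CD73, had 4222 and 4856 in PANC-1 and 7048 and 7490.5 in PZT-2 (log2FC 0.68, adjusted p = 0.00178). CRIM1, a transmembrane protein that binds bone morphogenetic proteins, also rose (log2FC 0.35, adjusted p = 0.00489).

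Among the genes called lower, TGFB2, a ligand of the TGF-beta family, had normalized counts of 546 and 457 in PANC-1 and 157 and 188 in PZT-2 (log2FC -1.54, adjusted p = 0.00082). AXL, a receptor tyrosine kinase, had 10876 and 10175 in PANC-1 and 8294 and 8092 in PZT-2 (log2FC -0.36, adjusted p = 0.00402). NUAK2, a kinase related to AMPK, fell as well (log2FC -0.57, adjusted p = 0.00456). TGFB2, AXL and NUAK2, like IGFBP3, GADD45A, NT5E and CRIM1, kept their calls in all 14 alternative settings. ASAP1 (-0.41, adjusted p = 0.00592) and PTPN14 (-0.35, adjusted p = 0.0253) were also lower, and their calls were lost in 2 and 5 settings. GGAATG or CATTCC was present in 9 of the 18 promoters listed for the 16 genes of this list that matched the RefSeq table, or 50%, against 14% of all promoters. The list is made of genes already known as YAP and TAZ targets, so this share is a description only. The AP-1 sequence was present in 2 of the 18 promoters (11.1%, against 7.71% of all promoters) and the CArG box in 0 (against 1.29%).

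Upstream of YAP and TAZ, the list of 40 Hippo pathway genes had 37 tested, of which 10 were called higher, 4 lower and 23 not called (37.8% called, median log2 fold change 0.11). That share lies near the 36.9% of all genes with a mean of at least 100, and the genes of this list are given by their own values. Of the core kinases, STK4 (MST1) was higher, with 1163 and 1172 in PANC-1 and 1554 and 1563 in PZT-2 (log2FC 0.42, adjusted p = 0.00352). STK3 (MST2) was at 0.05 on the log2 scale (adjusted p = 0.851), LATS1 at -0.28 (adjusted p = 0.0862) and LATS2 at 0.15 (adjusted p = 0.43), and none of them was called. The MAP4K-family kinases MINK1 (0.40, adjusted p = 0.00413), MAP4K3 (0.43, adjusted p = 0.0328) and MAP4K4 (0.30, adjusted p = 0.0133), which can phosphorylate LATS, were also called higher. Their relatives MAP4K1 (0.11, adjusted p = 0.843), MAP4K2 (0.21, adjusted p = 0.063) and MAP4K5 (0.37, adjusted p = 0.0624) were not called. FAT1, an atypical cadherin, fell from 6662 and 7322 to 3217 and 2546 (log2FC -1.28, adjusted p = 0.000782), and the related cadherins FAT4 (-0.22, adjusted p = 0.712) and DCHS1 (-0.02, adjusted p = 0.948) were not called. The largest value of the list, 1.51 for RASSF5, came from low counts and did not pass the test (adjusted p = 0.0567). WWC2, a KIBRA-family scaffold, fell from 736 and 874 to 321 and 342 (log2FC -1.28, adjusted p = 0.000681), while its paralog WWC1, known as KIBRA, rose from 485 and 496 to 816 and 746 (log2FC 0.67, adjusted p = 0.00211). The WWC1 call was lost with only the most abundant transcript (adjusted p = 0.306).

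The LIM proteins that bind LATS also moved in both directions. AJUBA fell from 2178 and 1857 to 1276 and 1336 (log2FC -0.63, adjusted p = 0.00368), and LIMD1 rose from 1515 and 1475 to 2407 and 2348 (log2FC 0.67, adjusted p = 0.00073). Their relative WTIP was also called higher (log2FC 0.24, adjusted p = 0.0286). RASSF1, a scaffold of the MST kinases, rose (log2FC 0.83, adjusted p = 0.00204), as did SLMAP, which recruits a phosphatase to them (0.83, adjusted p = 0.00441). STK38L, a kinase related to LATS, was also higher (0.61, adjusted p = 0.0113) and lost its call in 4 of 14 settings. LIMD1, RASSF1 and SLMAP, like WWTR1 and VGLL4, lie on chromosome 3. Of the 8 members, paralogs and listed pathway genes tested on that chromosome 5 were called higher, with a median log2 fold change of 0.73. Among all 836 genes tested there, 404 (48.3%) were called higher, with a median of 0.43. Of the 102 such members, paralogs and pathway genes on other chromosomes 30 were called higher, with a median of 0.02. Over all genes tested, 14.7% were called higher. The medians of the 20 neighbours were 0.33 for LIMD1, 0.41 for RASSF1 and 0.16 for SLMAP.

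The list of 22 other partners and modifiers of YAP, TAZ and TEAD had 19 tested, with a median of 0.12. Of these, 7 were called higher, 5 lower and 7 were not called. That is 63.2% called, against 28.4% of all genes tested and 36.9% of genes with a mean of at least 100. The Src-family kinases that phosphorylate YAP were higher: SRC went from 464 and 373 to 789 and 762 (log2FC 0.90, adjusted p = 0.00237), and YES1 from 623 and 652 to 958 and 970.1 (0.59, adjusted p = 0.00184). CSNK1E, a casein kinase whose family marks YAP for degradation, rose as well (0.52, adjusted p = 0.00514), while its paralog CSNK1D was not called (0.13, adjusted p = 0.137). The focal adhesion protein ZYX also rose (0.43, adjusted p = 0.00205), a call that was lost with only the most abundant transcript (adjusted p = 0.0772). YWHAZ (-0.23, adjusted p = 0.0089), YWHAE (-0.22, adjusted p = 0.0159) and SFN (-0.28, adjusted p = 0.0205) were lower by small amounts. They are phosphoserine-binding adaptors of the family that retains YAP in the cytoplasm, and this family went both ways, since YWHAG (0.23, adjusted p = 0.0134) and YWHAQ (0.19, adjusted p = 0.0152) were called higher and YWHAB (adjusted p = 0.935) and YWHAH (adjusted p = 0.189) were not called. RUNX2, a transcription factor that binds YAP and TAZ, had 95.6 and 96.7 in PANC-1 and 57.4 and 58.3 in PZT-2 (-0.73, adjusted p = 0.022), and lost its call in 7 of 14 settings. The 5 calls of lower partners fell to 0 when either PZT-2 library was left out.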

How the data were processed

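RNA was sequenced from 2 PANC-1 and 2 PZT-2 libraries prepared with a stranded mRNA kit. Per the submitters' processing notes and the methods, reads were trimmed with Trim Galore 0.4.1, and kallisto 0.43.0 and sleuth 0.29.0 were used, with hg19 as the named build. The RefSeq release is not given in the sources used here. The authors deposited estimated counts and TPM per transcript and library. Their own comparison columns hold p-values, q-values and effect sizes from a Wald test, and these were not used.

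The deposited estimated counts had been multiplied by 1 factor per library. It was found as the unit that made values of genes with a single transcript whole: within 0.01, between 49.0% and 49.8% of values from 0.5 to 30 came out whole, against 0.635% to 2.71% as deposited. The factors were 1.16 and 0.935 for PANC-1 and 1.03 and 1.01 for PZT-2. Undone values were summed per gene and rounded. Of 31077 transcripts, 27049 were named by the table and 3925 by accession in RefSeq (GRCh38.p14), and the 103 without a name, 0.0466% of counts, were left out. TPM values carry a library scaling of their own, with sums from 940619 to 1000097. Kallisto shares reads between similar transcripts, so splits between isoforms and close paralogs are estimates.

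Genes that reached 5 counts in 2 or more libraries of 4 entered the test in edgeR 4.0.16 (TMM normalization, quasi-likelihood, R 4.3.3) and called at an adjusted p under 0.05 (Benjamini-Hochberg over all 15099 genes). The model was run on simulated data for this comparison, with 14854 genes of which 200 were changed. Of these, 91 of 111 genes changed by a log2 of 1 and 41 of 89 changed by 0.5 were called. Beside these 132 true calls there were 20 false calls. In this single simulated set the false share of the calls was thus above the 0.05 aimed at. Far fewer genes were changed there than the 28.4% called in the data, so these rates need not carry over. Alternatives used RLE factors, DESeq2 1.42.0, other filters, limma 3.58.1 on log2(TPM + 1) or log2(TPM + 0.1), length-scaled counts, the most abundant transcript alone, the values as deposited, a replicate block, and each library left out. The study describes the libraries as biological replicates, and the p-values measure the spread between these libraries only. Same-numbered libraries did not deviate together (r = -0.0205).

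The members and lists were chosen with earlier results of these data known. All members, their paralogs, and up to 5 called genes per direction and list, largest by absolute log2 fold change with a mean of at least 50, were named, and further list genes named beside them were chosen after their values were seen. A gene of the partner list that this rule names is not reported here.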

Additional observations from a re-analysis of the deposited data

How the results depend on the processing

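The directions of WWTR1, TEAD3, CTGF, TEAD1, CYR61, AMOTL2, TEAD2 and TEAD4 held under all 14 alternatives. With only the most abundant transcript of each gene, 1124 genes were called higher and 1008 lower, and 0 members were called lower. TEAD1 and CYR61 are each listed with a single transcript, and their log2 fold changes stayed at -0.51 and -0.39 in that fit. Leaving out each library in turn gave 1088 to 2438 genes called higher, 937 to 2206 called lower and 0 to 4 members called lower: without PZT-2 replicate 1 there were 1287, 1176 and 1, and without PZT-2 replicate 2 there were 1088, 937 and 0. The 4 members called lower without PANC-1 replicate 2 were TEAD1, TEAD2, CYR61 and AMOTL2. Such a fit assumes that the lone library varies like the other group. AMOTL2 was also called with RLE factors (adjusted p = 0.0483), DESeq2 (0.0292) and the stricter filter (0.0318). The cause of these differences was not tested.

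The alternatives were run for the members, their paralogs, the targeted genes and the genes that the naming rule picks. Among these, signs turned for YAP1, ANKRD1, WISP3 and VGLL3, none of them called with all libraries. YAP1 was at -0.0064 and -0.0065 with limma on log2(TPM + 1) and log2(TPM + 0.1), and between -0.040 and 0.052 with a library left out (negative without PANC-1 replicate 1 or PZT-2 replicate 1). ANKRD1 was at 0.014 with limma on log2(TPM + 0.1) and between -0.65 and 0.71 with a library left out (0.71 without PANC-1 replicate 2 and 0.09 when PZT-2 replicate 1 was left out). WISP3 was at 0.62 with log2(TPM + 0.1) and between -1.54 and 5.40 with a library left out, the last without PANC-1 replicate 1, where it was called (adjusted p = 0.0413). VGLL3 ranged from -0.35 to 0.33 (0.33 without PANC-1 replicate 1 and 0.16 when PZT-2 replicate 2 was left out).

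The replicate numbers were shared as labels only. With the replicate block 1983 genes were called higher and 1764 lower, all 5 member calls were kept, and of the genes rerun singly SRF (adjusted p = 0.0636) and WISP2 (0.0591) lost theirs. The block also took the genes called higher from 10 to 8 in the Hippo list and from 7 to 4 in the SRF-MRTF list, and those called lower from 7 to 6 in the target list. Depth limits ANKRD1, VGLL3 and WISP3, and 2 libraries per line limit every interval. No control with a scrambled shRNA was analysed here.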

Other observations

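Genes controlled by serum response factor (SRF) and its actin-sensing coactivators of the MRTF family share several targets with YAP and TAZ, CTGF and CYR61 among them. Of a list of 23 such genes, 22 were tested, with a median log2 fold change of -0.13. Of these, 7 were called higher in PZT-2, 7 lower and 8 were not called. That is 63.6% called, against 28.4% of all genes tested and 36.9% of genes with a mean of at least 100. Contractile genes were found on both sides. MYL9, a myosin regulatory light chain, rose from 460.2 and 376 in PANC-1 to 770.0 and 733 in PZT-2 (log2FC 0.85, adjusted p = 0.00261). The tropomyosins TPM4 (0.52, adjusted p = 0.00123) and TPM2 (0.39, adjusted p = 0.00242) rose as well, while TPM1 was not called (-0.07, adjusted p = 0.439). VCL, which encodes vinculin, was higher (0.28, adjusted p = 0.00728) and lost its call without PZT-2 replicate 1 (adjusted p = 0.0753).

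ACTB, the gene for beta-actin, fell from 87549 and 84436 to 60433 and 60313 (log2FC -0.51, adjusted p = 0.000375), and TAGLN2, an actin-binding protein, fell too (-0.36, adjusted p = 0.00236). CALD1, which encodes caldesmon, fell from 126 and 94.9 to 57.4 and 42.5 (-1.14, adjusted p = 0.0147) and lost its call without PZT-2 replicate 2 (adjusted p = 0.0843). FHL2, a LIM-domain cofactor of SRF, was lower (-0.47, adjusted p = 0.00799). Of the regulators, MKL2 (MRTF-B) fell from 1208 and 1333 to 865 and 709.99 (-0.69, adjusted p = 0.00495), MKL1 (MRTF-A) was not called (-0.26, adjusted p = 0.0872), and SRF itself was higher (0.23, adjusted p = 0.0354), a call lost in 8 of 14 settings. With the replicate block, 4 genes of this list were called higher.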
